A study of Mus musculus with 2 samples.

Results

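Keratins and desmosome genes were read from total RNA sequencing of whole mouse intestine. The members were the protein-coding genes whose symbol names a numbered keratin, a desmoglein, a desmocollin or a plakophilin, together with desmoplakin (Dsp) and plakoglobin (Jup). There were 64 members, 49 keratins and 15 desmosome genes, among 21474 protein-coding genes measured. The tissue came from B6NCrl embryos of 16.5 days, healthy and of mixed sex, with no treatment or engineered allele named in the labels. The series holds 1 group of 2 libraries, replicate 1 and replicate 2, each from its own pool of embryos (41 embryos in replicate 2) and each made from 10 ng of RNA longer than 200 nt. The libraries held 41279206 and 40758084 expected counts over genes, of which 0.322% and 0.313% fell on the members. No embryo number is stated for replicate 1, and both pools carry the same donor identifier, so the spread between the libraries may in part be technical.

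Keratins are the intermediate filament proteins of epithelial cells. Each filament is built from pairs of 1 type I and 1 type II keratin, and different epithelia use different pairs: Krt8 with Krt18, Krt19 or Krt20 in single-layered (simple) epithelia such as the gut, Krt5 with Krt14 or Krt15 in the basal layer of stratified epithelia, and Krt1 with Krt10 in the upper layers of the epidermis. Desmosomes are the junctions that anchor these filaments at the cell border. Their adhesive part is made of desmogleins and desmocollins, which are cadherins, and plakoglobin, the plakophilins and desmoplakin link the cadherins to keratin. Desmoglein, desmocollin and plakophilin genes also come as forms of simple epithelia (Dsg2, Dsc2, Pkp2) and of stratified epithelia (the Dsg1 genes, Dsg3, Dsc1, Dsc3, Pkp1).

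Levels are in TPM, an abundance corrected for transcript length and scaled to the library. Detection meant 1 TPM or more in each library. By this rule 17 of 64 members were detected, against 62.0% of all protein-coding genes. The median member stood at 0.065 and 0.040 TPM in replicates 1 and 2, against 4.46 and 4.44 over all protein-coding genes. The detected members were all 5 simple keratins (Krt7, Krt8, Krt18, Krt19, Krt20), 4 of 14 stratified keratins (Krt10, Krt14, Krt15, Krt17), 1 of 9 keratins left unplaced (Krt23), and 7 of 15 desmosome genes (Dsg2, Dsc2, Pkp2, Pkp3, Pkp4, Dsp and Jup). None of 13 hair keratins and none of 8 inner root sheath keratins, which build the hair shaft and its sheath, was detected. At 100 TPM or more in each library there were 5 members (Krt8, Krt19, Krt18, Jup and Krt7), and 7.47% of all protein-coding genes reached it. Neither library gave any count for 17 members, against 17.6% of all protein-coding genes; the upper limit of 3 counts that this allows is 0.0264 to 0.0954 TPM, depending on gene length.

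**Figure D1:**
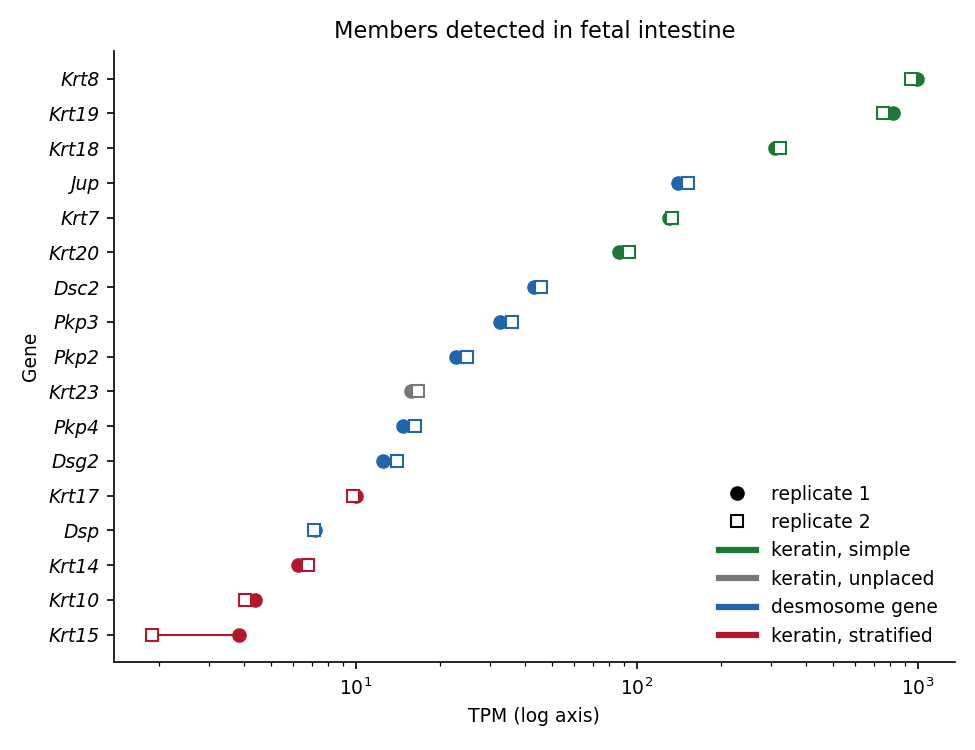
TPM of the 17 detected members on a log axis, with replicate 1 as filled circles and replicate 2 as open squares, coloured by keratin class or as desmosome genes. Krt8 and Krt19 lead, and Krt15 at the bottom is the member whose libraries lie farthest apart, at 3.86 and 1.89.

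Among the type II keratins, Krt8 (ENSMUSG00000049382.9; mm10 chromosome 15, 101996698 to 102004482, minus strand) was the most abundant member of all. It read 991 TPM in replicate 1 and 945 in replicate 2 (mean 968 ± 33.2, SD, n = 2), and ranked 111th and 115th of all protein-coding genes. Krt7, a keratin of ducts and other glandular epithelia, read 130 and 134 TPM. Krt8 therefore stood 7.32-fold above Krt7 (log2 2.87 ± 0.0760), and the libraries did not overlap. Krt8 made up 87.7% ± 0.460 of all type II keratin TPM and Krt7 12.0% ± 0.569.

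The type I partners were shared among more genes. Krt19 (ENSMUSG00000020911.10; chromosome 11, 100140810 to 100148665, minus strand), a short keratin that lacks most of the tail domain, read 819 and 756 TPM and held 63.7% ± 2.04 of type I TPM. Krt18 (ENSMUSG00000023043.6; chromosome 15, 102028180 to 102032027, plus strand), the usual partner of Krt8, read 310 and 324 TPM and held 25.7% ± 1.46. Krt20, a keratin of differentiated enterocytes and goblet cells, read 86.5 and 93.7 TPM and held 7.30% ± 0.591. Krt8 stood 3.05-fold above Krt18 (log2 1.61 ± 0.0959) and Krt19 stood 2.48-fold above Krt18 (log2 1.31 ± 0.128). Krt19 exceeded Krt20 by 8.74-fold (log2 3.13 ± 0.163). In CPM, which counts reads without length correction, this log2 ratio was 2.53, and with protein-coding transcripts alone the means were 507 TPM for Krt19 and 90.1 for Krt20. In bulk tissue, fewer cells with a transcript and less of it per cell cannot be told apart.

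Summed over all members, type I and type II keratins were close to parity. Type I keratins came to 1257 and 1214 TPM and type II keratins to 1126 and 1081, a log2 ratio of 0.16 ± 0.00658. The direction of this small difference turned with the unit. It was -0.31 in CPM (counts scaled to the library total, without length correction), and -0.19 when only transcripts annotated as protein-coding were summed, a setting chosen after the values were seen. With coding transcripts alone the sums were 959 and 945 TPM for type I and 1111 and 1066 for type II. Krt18, Krt19 and Krt20 summed against Krt7 and Krt8 gave a log2 ratio of 0.12.

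**Figure D2:**
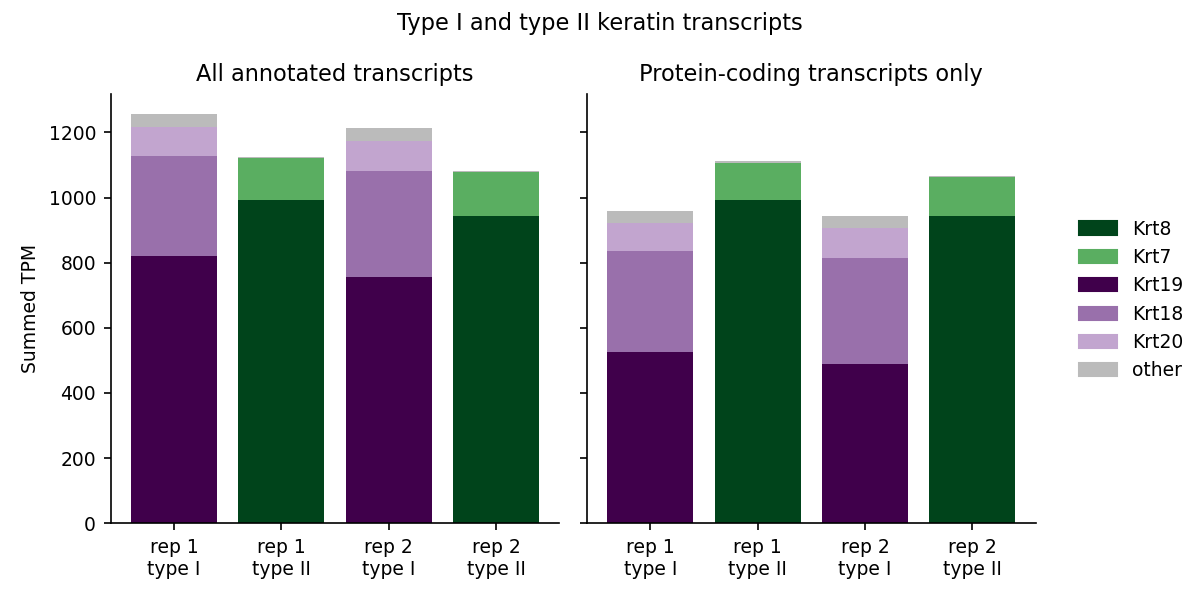
Summed TPM of type I (purple) and type II (green) keratins in each library (rep 1 and rep 2), stacked by gene, with all other keratins in grey. The left panel counts all annotated transcripts and the right panel protein-coding ones only. Type I bars are the taller ones on the left (1257 against 1126 TPM in replicate 1) and the shorter ones on the right (959 against 1111).

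The transcript tables divide the reads of a gene among its annotated transcripts. Krt8, Krt18 and Krt20 each had 1 transcript, so their levels do not depend on such a division. Krt19 had 3. Its coding transcript Krt19-201 of 1576 nt took 64.1% and 64.6% of Krt19 TPM, and the processed transcript Krt19-203 of 823 nt, which has no annotated coding sequence, took 35.9% and 35.3%. In TPM that is 525 and 489 for the coding transcript and 294 and 267 for the other. Krt7 was divided among 6 transcripts. The 4094-nt Krt7-201 held 49.2% and 48.7%, and a coding transcript of 642 nt held 39.4% and 40.5% from 821 and 841 of the 9001 and 8869 counts of Krt7. Short transcripts weigh more in TPM than in counts, and these shares are estimates from shared reads.

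The simple keratins far exceeded the stratified ones. Their 5 members summed to 2337 and 2253 TPM, and the 14 stratified keratins to 26.5 and 23.0. The log2 ratio of the sums was 6.54 ± 0.108, with 6.46 in replicate 1 and 6.61 in replicate 2. Simple keratins made up 98.1% ± 0.0529 of keratin TPM and stratified keratins 1.06% ± 0.0783. No p-value is printed for this or any other comparison, because an exact 2-sided sign-flip test on 2 libraries cannot go below 0.5.

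The stratified keratins that were detected were all of type I. Krt17, which is induced in basal and stressed epithelia, read 10.1 and 9.81 TPM. Krt14, the basal type I keratin, read 6.24 and 6.76 TPM. Krt10, of the upper epidermal layers, read 4.40 and 4.04, and Krt15, another basal type I keratin, read 3.86 and 1.89. Krt17, the highest of them, ranked 8388th and 8529th of all protein-coding genes. The usual type II partners were lower than the type I genes. Krt5 read 0.29 and 0.12 TPM, from 18 and 7 counts, and stood 32.9-fold below Krt14 (log2 -5.04 ± 0.935). Krt1 read 0.41 and 0.31 TPM and stood 11.5-fold below Krt10 (log2 -3.53 ± 0.191).

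By type, 4 of 8 stratified type I keratins and 0 of 6 stratified type II keratins were detected. Their sums were 24.8 and 22.5 TPM for type I against 1.69 and 0.47 for type II, a log2 ratio of 4.73 ± 1.21. Among the simple keratins the same ratio was 0.12. Krt6a, a partner of Krt16 and Krt17 that lies outside the rule for members and was looked up after the values were seen, read 0.35 and 0.080 TPM, and its near-identical copy Krt6b had no count. Krt16, also named after its value was seen, had no count. Krt14 itself was divided between the coding Krt14-201 (53.0% in replicate 1 and 75.9% in replicate 2) and the processed transcript Krt14-202 (47.0% and 24.1%), so its coding transcript read 3.31 and 5.13 TPM. Krt10 overlaps an antisense gene, Gm11940, by 558 bases. Gm11940 had 11 and 3 counts against 258 and 230 for Krt10.

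Across classes, the log2 ratio of Krt8 to Krt5 was 12.26 ± 0.80 with a pseudocount of 0.01 TPM. Counts pooled over the libraries and corrected for length gave a ratio of 4697, with a 95% exact counting interval of 3182 to 7258. The TPM ratio was 3419 in replicate 1 and 7871 in replicate 2, so the value of replicate 2 lay outside that interval. Krt18 stood 48.7-fold above Krt14 (log2 5.61 ± 0.0350). Such intervals hold counting error alone, as reads that carry no molecular identifier can be copies of 1 molecule.

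The remaining keratins were near or at the counting limit, except Krt23. Krt23, a type I keratin placed in neither class here, read 15.7 and 16.7 TPM, above every stratified keratin in both libraries. Krt80, a type II keratin also left unplaced and named after its value was seen, lay just under the limit of detection at 0.97 and 0.73 TPM. Of the hair keratins, Krt84 had the highest mean, at 0.45 and 0.24 TPM, with Krt87 at 0.37 and 0.28, and 7 of 13 had no count. Of the inner root sheath keratins, Krt25 had the highest mean, at 0.050 and 0.15 TPM from 3 and 8 counts, with Krt28 at 0.070 and 0, and 3 of 8 had no count. Krt87 and Krt28 are named after their values were seen. A list of skin and hair follicle factors was read beside the hair keratins. Of these factors 0 of 4 were detected, against 62.0% of all protein-coding genes. Msx2 read 0.16 and 0.13 TPM, Lhx2 0.040 and 0.010, Foxn1 0 and 0.020, and Hoxc13 had no count.

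All 49 keratins sit in 2 clusters, and the detected ones were interspersed with members at or near 0. The type I cluster on chromosome 11 held 25 members over 1037 kb (99232761 to 100269871), of which 7 were detected. The type II cluster on chromosome 15 held 24 members over 685 kb (101347444 to 102032027), of which 3 were detected: Krt7 as the second member from the left edge and the neighbours Krt8 and Krt18 at the right edge. Krt18 is the only type I keratin in that cluster. It lies 23697 bases from Krt8 on the opposite strand with no coding gene between them. On chromosome 11, Krt19 (788 TPM in the mean) and Krt15 (2.88) are neighbours 4881 bases apart, and Krt20 (90.1) and Krt23 (16.2) are neighbours 39823 bases apart. Jup lies 107928 bases beyond Krt17. The desmosomal cadherin cluster on chromosome 18 held 9 members and no other coding gene over 644 kb, with Dsg2 at its right edge and Dsc2 second from the left as the 2 detected genes, 498519 bases apart.

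**Figure D3:**
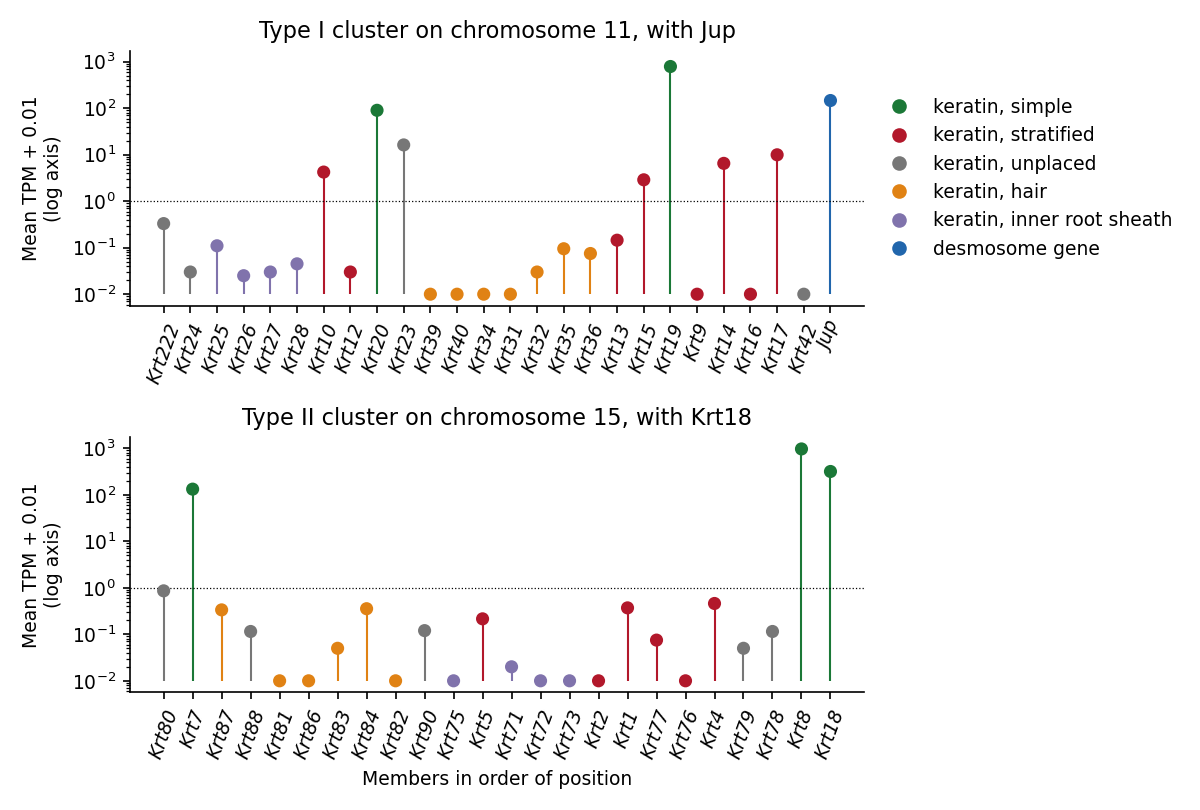
Mean TPM of both libraries plus 0.01 on a log axis for the members of the chromosome 11 cluster, with Jup, and the chromosome 15 cluster in order of position, with the detection limit of 1 dotted. Expressed simple keratins (green) stand beside members near 0, and Krt8 and Krt18 are adjacent at the end of the chromosome 15 cluster.

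Promoter sequence was read because neighbours in these clusters differed widely in level. RefSeq promoter windows on GRCm38.p6, running from 250 bases before to 50 after the start, were matched for 38 of the 64 members (40 windows). The stretches shown are the bases upstream of both the RefSeq start and the GENCODE start of the main transcript: the neighbours Krt8 and Krt18, Krt7 and Krt20 as the other expressed simple keratins matched, and Krt5 as a stratified member near 0. No window was matched for Krt19. Capitals mark matches, on either strand, to TATAAA (the TATA box), GGGCGG (the GC box), CACCC or TTTATG (a CDX-type element).
Krt8 promoter (chr15:102004483-102004592, minus strand): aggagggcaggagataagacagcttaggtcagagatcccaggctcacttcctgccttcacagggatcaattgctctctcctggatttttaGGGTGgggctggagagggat
Krt18 promoter (chr15:102027966-102028179, plus strand): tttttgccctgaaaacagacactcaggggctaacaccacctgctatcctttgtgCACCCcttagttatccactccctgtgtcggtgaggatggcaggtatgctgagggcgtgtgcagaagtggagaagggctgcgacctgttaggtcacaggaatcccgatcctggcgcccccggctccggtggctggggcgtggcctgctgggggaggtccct
Krt7 promoter (chr15:101412153-101412401, plus strand): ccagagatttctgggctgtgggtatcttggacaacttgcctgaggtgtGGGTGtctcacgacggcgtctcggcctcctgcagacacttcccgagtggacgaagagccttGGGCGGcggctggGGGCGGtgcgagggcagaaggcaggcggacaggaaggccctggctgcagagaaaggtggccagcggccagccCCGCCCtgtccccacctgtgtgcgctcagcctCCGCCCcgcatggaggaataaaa
Krt20 promoter (chr11:99438154-99438403, minus strand): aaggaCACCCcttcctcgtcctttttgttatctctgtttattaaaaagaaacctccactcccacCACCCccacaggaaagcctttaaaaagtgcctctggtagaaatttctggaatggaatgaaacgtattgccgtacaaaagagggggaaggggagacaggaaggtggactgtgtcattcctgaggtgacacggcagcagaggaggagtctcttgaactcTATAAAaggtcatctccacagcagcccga
Krt5 promoter (chr15:101712906-101713155, minus strand): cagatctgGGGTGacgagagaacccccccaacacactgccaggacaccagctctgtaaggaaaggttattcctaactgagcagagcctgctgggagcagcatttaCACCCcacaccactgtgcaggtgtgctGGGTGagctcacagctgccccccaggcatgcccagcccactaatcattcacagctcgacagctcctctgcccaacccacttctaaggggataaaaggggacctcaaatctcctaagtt

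Krt7 held 4 GC boxes, Krt20 held 1 TATA box that begins 29 bases before the RefSeq start, and neither motif was found in the windows of Krt18 or Krt5. Krt8 held TATAAA on both strands, as overlapping matches 3 bases and 1 base before its RefSeq start. That start lies inside the GENCODE gene, downstream of the stretch shown. Over all 40 member windows, 45% held TATAAA against 13.6% of 32851 promoters, and 5 of 40 held GGGCGG against 35.7% of all promoters. Among windows of detected members, 3 of 11 held TATAAA and 4 of 11 held GGGCGG. Among windows of members that were not detected, 15 of 29 held TATAAA and 1 of 29 held the GC box. This split also divides the families. All windows of undetected members are of keratins, and the 4 desmosome windows are all of detected members. Of those 4 windows, 0 held TATAAA and 3 held the GC box, so the split over all windows mixes detection with family. They are of Jup, Dsp and Pkp4, with Pkp4 there more than once. Among detected keratins, TATAAA was in the windows of Krt8, Krt20 and Krt10 and not in those of Krt7, Krt18, Krt23 and Krt14. The GC box was in that of Krt7 alone. A difference by detection within the keratins was not tested. The motif TTTATG was found in 40% of member windows against 11.9% of all promoters, with 0 of 4 simple keratin windows and 7 of 8 hair keratin windows. CACCC was found in 85% against 57.5%. Keratin genes are copies of one another and their windows are not independent, and a match is a description of these letters only.

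Among the desmosome genes, the forms of simple epithelia were detected and those of stratified epithelia were not. Dsg2 (ENSMUSG00000044393.11; chromosome 18, 20558074 to 20604521, plus strand), the desmoglein of simple epithelia, read 12.6 and 14.1 TPM and held 99.4% ± 0.114 of desmoglein TPM. The other 5 desmogleins read at most 0.070 TPM in either library. Dsg1c had 4 and 8 counts, Dsg3 had 2 and 1, Dsg1a had 0 and 1, the hair desmoglein Dsg4 had 1 and 0, and Dsg1b had none. The 3 Dsg1 genes are close copies, so the split of reads among them is uncertain. Dsg2 over Dsg3 was 1031-fold in pooled counts corrected for length, with a counting interval of 353 to 5002. Over Dsg1a, which had 1 count, it was 4311-fold, with an interval of 773 to 170328.

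The desmocollins, the partner cadherins, showed the same order. Dsc2 (ENSMUSG00000024331.7; chromosome 18, 20030633 to 20059554, minus strand) read 43.0 and 45.7 TPM and held 98.9% ± 0.0466 of desmocollin TPM. Dsc3, of basal stratified layers, read 0.46 and 0.52 TPM, from 71 and 78 counts, 88.9-fold below Dsc2 (log2 6.47 ± 0.0598). Dsc1 had no count in either library, so Dsc2 was at least 1551-fold and 1601-fold higher in replicates 1 and 2, taking a floor of 3 counts per library. Between the cadherin families, Dsc2 stood 3.33-fold above Dsg2 (log2 ratio of Dsg2 to Dsc2 -1.74 ± 0.0514). The desmocollins make long and short tail forms by splicing, and which Dsc2 transcript encodes which form was not determined here. Dsc2 was divided between Dsc2-202 of 4508 nt (69.6% and 74.5%) and Dsc2-201 of 4630 nt (29.4% and 24.0%). Dsg2 was nearly all Dsg2-201 (99.0% and 99.9%).

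The plakophilins, armadillo-repeat proteins of the inner plaque, were spread over 3 genes. Pkp3, found in most epithelia, read 32.8 and 36.1 TPM. Pkp2, the form of simple epithelia and heart, read 22.7 and 24.97, and Pkp4, a widely expressed relative, read 14.8 and 16.3. Pkp1, of stratified epithelia, read 0.040 and 0.020 TPM, from 5 and 2 counts. Their shares of plakophilin TPM were 46.6% ± 0.0422 for Pkp3, 32.3% ± 0.0358 for Pkp2, 21.05% ± 0.0155 for Pkp4 and 0.0414% ± 0.0219 for Pkp1. Pkp4 stood 1.53-fold below Pkp2 (log2 -0.62 ± 0.00264). Pkp2 exceeded Pkp1 by 851-fold in pooled counts corrected for length (counting interval 412 to 2117) and Pkp3 exceeded it by 1227-fold (595 to 3055). These sizes rest on 7 counts of Pkp1: with the deposited posterior mean TPM, where Pkp1 reads 0.15 and 0.11, the log2 ratios were 7.40 for Pkp2 and 7.99 for Pkp3, against 9.27 and 9.79 with TPM.

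The order of Pkp3 and Pkp2 depended on the unit and on the transcripts counted. The log2 ratio of Pkp2 to Pkp3 was -0.53 ± 0.00292 in TPM and 0.13 in CPM. The transcript tables gave Pkp3-201, coding, 54.7% and 56.7% of Pkp3, and a 462-nt transcript that GENCODE M21 no longer lists took 25.1% and 30.6%. With coding transcripts only, Pkp3 read 18.7 and 20.8 TPM and Pkp2 21.3 and 23.4. Pkp4 was assigned mostly (67.7% and 70.8%) to a 2505-nt processed transcript without annotated coding sequence, and its coding transcripts came to 3.61 and 2.63 TPM.

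The plaque proteins that all desmosomes share differed widely in level. Jup (ENSMUSG00000001552.10; chromosome 11, 100368958 to 100397763, minus strand), which encodes plakoglobin and also joins adherens junctions, read 140 and 152 TPM, 51.2% ± 0.0231 of all desmosome TPM. Dsp (ENSMUSG00000054889.5; chromosome 13, 38151294 to 38198577, plus strand), the plakin that binds keratin, read 7.17 and 7.14 TPM, the lowest of the 7 detected desmosome genes in this unit. In counts Pkp4 was lower than Dsp (1170 and 1216 against 1671 and 1631), as it was in TPM with coding transcripts only (3.61 and 2.63 against 7.16 and 7.14). Jup stood 20.4-fold above Dsp in TPM (log2 ratio of Dsp to Jup -4.35 ± 0.0860). In CPM, without length correction, the log2 ratio was -2.93. Dsp has by far the longest transcripts here, with 7761 nt for Dsp-202 (85.4% and 81.1% of Dsp) and 9538 nt for Dsp-201 (14.6% and 18.9%). Dsp also stood 1.86-fold below Dsg2 (log2 -0.89 ± 0.118). Jup stood 2.16-fold below its relative beta-catenin, Ctnnb1, at 313 and 318 TPM (log2 -1.11 ± 0.0636).

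Summed, the simple forms Dsg2, Dsc2 and Pkp2 came to 78.3 and 84.8 TPM and the 7 stratified forms to 0.55 and 0.63, a log2 ratio of 7.11 ± 0.0577. The 4 shared genes (Jup, Pkp3, Pkp4, Dsp) came to 195 and 212 TPM. Where Pkp3, which stratified epithelia also use, was counted with the stratified forms, the log2 ratio was 1.22. All desmosome genes together came to 274 and 297 TPM, against 2383 and 2295 for the keratins.

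**Figure D4:**
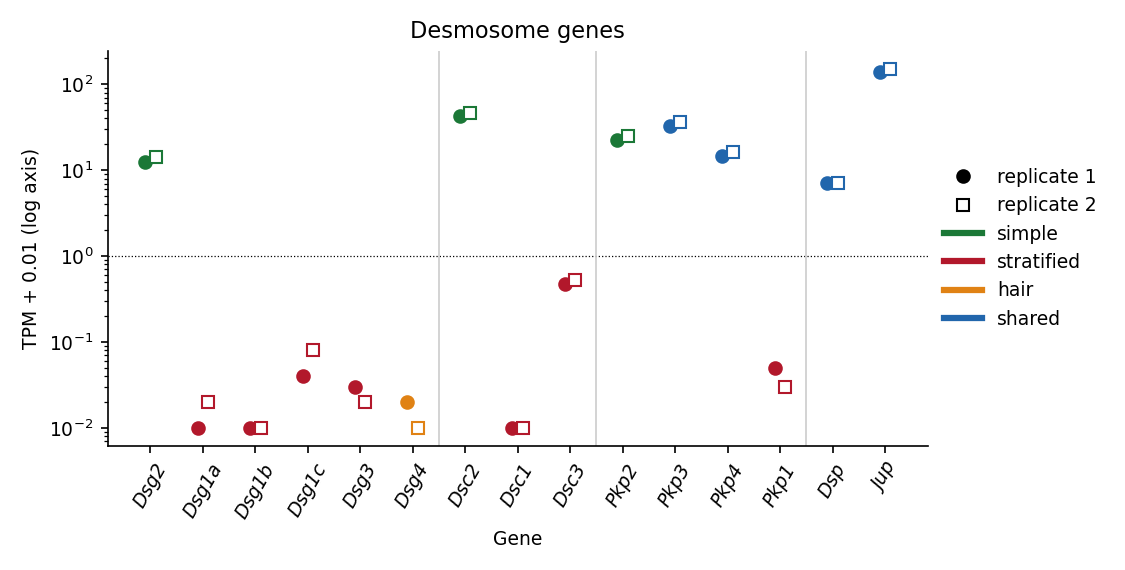
TPM plus 0.01 on a log axis for the 15 desmosome genes, with replicate 1 as filled circles and replicate 2 as open squares, coloured by the epithelium each form is known from, and the detection limit of 1 dotted. Dsg2, Dsc2 and Pkp2 lie above the line, and every stratified form lies below it, Dsc3 being nearest at 0.46 and 0.52.

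Of the 16 neighbouring pairs in the order of levels of the 17 detected members, 15 had libraries that did not overlap, and Krt23 (15.7 and 16.7 TPM) and Pkp4 (14.8 and 16.3) overlapped. All 23 fixed gene pairs, which are the ratios given here with Krt4 over Krt13, had the same sign in both libraries with a mean over 3 SD. For Krt4 over Krt13 this rests on replicate 1 (0.87 and 0.27 TPM), since both genes were under 3 counts in replicate 2.

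Genes that work with keratins and desmosomes were read from fixed lists, beside a share of 62.0% detected over all protein-coding genes. All 9 further plakins and desmosome partners were detected at a median of 10.7 and 11.9 TPM, with the desmosomal membrane protein Perp at 67.8 and 83.5, the cytolinkers Plec at 27.2 and 25.02 and Macf1 at 16.5 and 15.8, and the cornified envelope plakin Evpl lowest at 1.63 and 2.14. Of 6 hemidesmosome genes, which anchor keratin to the basement membrane, 5 were detected: Plec, Cd151 at 23.8 and 23.1 TPM, Itga6 at 20.8 and 25.4, Itgb4 at 10.2 and 13.0 and Dst at 10.7 and 11.9. The sixth, Col17a1, read 0.36 and 0.49. All 8 adherens junction genes were detected at a median of 85.1 and 90.3 TPM, led by Ctnnb1, Cdh1 (146 and 155) and Ctnna1 (130 and 133), with Cdh2 lowest at 14.9 and 13.1.

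Of 10 factors known to act on keratin and desmosome genes, 8 were detected, among them Elf3 at 226 and 228 TPM and Klf5 at 72.2 and 81.9. The other two were Tfap2a (0.080 and 0.060) and Trp63 (0.12 and 0.020), the p63 factor of basal stratified cells. Of 13 other intermediate filament genes, 11 were detected, led by Vim at 338 and 317 TPM, the filament of mesenchyme, Des at 127 and 135, the filament of muscle, and Lmna at 111 and 110, of the nuclear lamina, with Gfap lowest at 0.32 and 0.070. Krt8 stood 2.96-fold above Vim (log2 1.57 ± 0.0149) and 7.38-fold above Des (log2 2.88 ± 0.114, or 2.12 in CPM).

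Epithelial identity genes were read as a check on the presence of epithelium, not on the organ it came from. All 9 were detected at a median of 186 and 208 TPM, led by Lgals4 (2066 and 2215), Cldn7 (1185 and 1213) and Epcam (821 and 816), with Esrp1 lowest, at a mean of 21.3 TPM. Markers of other cell types that use these keratins or junctions were read beside them. All 5 mesothelial genes were detected (Upk3b at 57.1 and 61.5 TPM, Msln at 19.0 and 21.5, Wt1 at 6.93 and 8.52, Lrrn4 at 6.73 and 8.52, Bnc1 at 1.77 and 1.78). All 5 pancreatic duct and acinus genes were detected (Cpa1 at 306 and 348, Sox9 at 21.8 and 22.6, Cftr at 10.8 and 11.8, Muc1 at 11.3 and 11.4, Ptf1a at 7.79 and 9.54), of which the intestine itself also expresses Sox9, Cftr and Muc1. Of 4 urothelial genes 3 were detected (Upk1b at 12.0 and 10.8, Upk1a at a mean of 6.18, Upk3a at 1.35 and 1.74), with Upk2 at 0.66 and 0.86. Of 5 heart muscle genes 3 were detected (Myl7 at 75.5 and 64.2, Tnnt2 at 22.7 and 20.1, Tnni3 at 1.36 and 1.40), while Myh6 read 0.050 and 0.14 and Nppa 0.44 and 0.18. How much of the member levels came from these cells was not tested.

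Between the 2 pools, the call between libraries fell on Krt15 alone. A gene was called different when its mean count was at least 100, its TPM differed by over 1.5-fold and the deposited intervals of TPM did not overlap. By this rule 1 of 17 members with enough counts differed, against 2.35% of 12885 protein-coding genes (0.667% higher in replicate 1 and 1.68% higher in replicate 2). The member was Krt15, at 3.86 TPM in replicate 1 and 1.89 in replicate 2, a 2.04-fold difference. The largest ratio among the other 16 was 1.12-fold, for Dsg2. The median log2 ratio of replicate 2 to replicate 1 was 0.085 over the 17 members and -0.015 over all genes tested. All 7 desmosome genes that were tested except Dsp were higher in replicate 2, with a median log2 ratio of 0.14, and none was called. Of the 10 keratins tested, 5 were higher in each library.

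Below that count, several stratified keratins read higher in replicate 1. Krt4, the type II keratin of oesophagus and other wet stratified epithelia, had 52 counts in replicate 1 (95% exact Poisson interval 38.8 to 68.2) and 2 in replicate 2 (0.242 to 7.22). Its type I partner Krt13 had 8 counts and 0, Krt77 had 10 and 1, and Krt5 had 18 and 7. The ratio of the libraries per total count was 25.7 for Krt4 (counting interval 6.76 to 218) and 2.54 for Krt5 (1.01 to 7.19). Of the 10 stratified keratins with any count, 8 were lower in replicate 2, the exceptions being Krt14 and Krt12. Over all 15 stratified members with any count, 10 were lower and 5 higher in replicate 2, with Dsc3 (71 and 78 counts), Dsg1c (4 and 8) and Dsg1a (0 and 1) among the higher. Keratins of other classes with few counts went both ways. Krt84 had 33 and 17 counts and Krt80 had 48 and 35, while Krt25 had 3 and 8. Hair keratins summed to 1.05 and 0.71 TPM and inner root sheath keratins to 0.17 and 0.19, so lower values in replicate 2 were not limited to stratified keratins. Of the 12885 protein-coding genes with enough counts, 6837 were higher in replicate 1. No such share was taken over genes below the count minimum, where most of these members and of the squamous genes below lie. Krt12 and Krt77 are named after their values were seen. On the squamous epithelium list, all 8 genes read lower in replicate 2, none was called different, and 6 of 8 lay under the count minimum. Its summed level was 65.9 and 54.4 TPM. All 8 are given here, which was decided after their values were seen. Krtdap had 30 and 12 counts, Lor 21 and 7, Sprr1a 18 and 6, Trp63 11 and 2, Ivl 6 and 2 and Sprr1b 4 and 1. The highest genes of that list, Sfn at 51.2 and 42.7 TPM and Sbsn at 10.1 and 9.80, differed least, by 1.20-fold and 1.03-fold, and are the 2 genes with enough counts. All 8 had counts in both libraries, but by the 1 TPM rule 3 of 8 were detected (Sfn, Sbsn and Krtdap), against 62.0% of all protein-coding genes. Trp63, Ivl, Lor, Sprr1a and Sprr1b stood below 1 TPM in each library. The part of squamous tissue in the Krt15 and Krt4 differences was not tested.

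**Figure D5:**
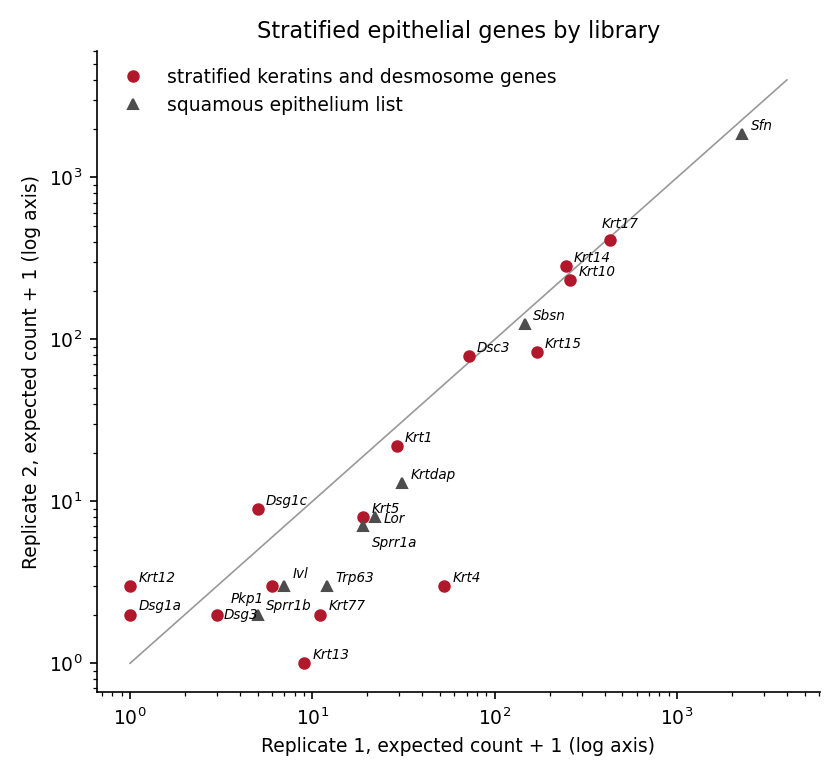
Expected counts plus 1 in replicate 1 (x axis) and replicate 2 (y axis), both on log axes, for stratified keratins and desmosome genes with any count (red circles) and the squamous epithelium list (grey triangles), with the line of equality. Krt4 (52 and 2 counts) lies farthest below the line, Krt15 (169 and 82) is the only one called, and Krt14 and Dsc3 lie near it.

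Of the 17 detected members, 6 had a single annotated transcript and 11 had at least 2. The transcript with the largest share did not change between libraries in 11 of 11, against 92.0% of 9808 protein-coding genes.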

How the data were processed

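Total RNA was measured in 2 libraries. As deposited, expected counts are estimated reads per gene or transcript of GENCODE M4 on mm10, not normalised (build and release from text deposited with the tables). The authors' TPM values divide them by effective length and scale them over all features, spike-ins included. Percent values, per the file headers, are a transcript's part of its gene's TPM. The TPM interval bounds carry no stated level. They need not hold the TPM itself: for Krt8 in replicate 1 they run from 964 to 981, around the posterior mean TPM of 972, and leave out the TPM of 991. For the aligner, the quantifier and strandedness, the answer is the same: not given in the sources used here. Overlapping antisense genes may therefore not be separable. Besides Krt10, this holds for Krt8 (271 bases with Gm36026), Krt7 (1269 with Gm671), Dsg2 (6558 with Gm16090) and Dsp (499 with Gm10129), each on the opposite strand. Gm36026 and Gm671 have no level here. Gm16090 had 14.3 and 9.86 counts and Gm10129 had 3.32 and 1.11.

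Symbols, gene types and coordinates came from GENCODE M21, which matched 42462 of 43346 gene identifiers. Spike-ins stayed out of gene totals, as did features with numeric identifiers, which held 0.000147% and 0.000157% of counts. Values are mean ± SD over the 2 libraries (n = 2). Pair ratios used log2(TPM + 0.01) and were called apart at the same sign and a mean over 3 SD. Normalisation factors for alternatives came from edgeR 4.0.16 and DESeq2 1.42.0 in R 4.3.3 on counts rounded to whole numbers. Other steps used Python 3.11.15, numpy 2.4.6, pandas 2.3.3, scipy 1.17.1 and matplotlib 3.10.9. The call between libraries was also run on simulated counts, with a lower count minimum and with Poisson count intervals in place of the deposited TPM intervals. The exact rule used here was therefore not itself tested. The members, classes and lists were chosen with earlier results of these data known, and Krt88 was placed after the files were read. Named genes were all detected members, all simple keratins and desmosome genes, 8 stratified keratins (Krt1, Krt4, Krt5, Krt10, Krt13, Krt14, Krt15, Krt17), the highest of each other keratin class, the pair genes, and of each list the 3 highest and the lowest (all genes of lists of 6 or fewer); 1 gene that this rule names is not reported here.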

Additional observations from a re-analysis of the deposited data

How the results depend on the processing

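No paired analysis was possible because all libraries belong to 1 group. The count of detected members was within 1.5 times of 17 under each alternative run, from 15 at a TPM of 5 to 23 at 10 counts in both libraries. The simple over stratified keratin log2 ratio of 6.54 ranged from 6.46 to 6.61 with 1 library left out. It was 10.5 and 8.11 as a difference of medians with pseudocounts of 0.1 and 1, 6.81 without Krt10 and 5.72 with all other keratins as stratified. The desmosome ratio of 7.11 ranged from 7.07 to 7.15 with 1 library left out, and was 7.70 by medians, 6.79 with posterior mean TPM, 6.83 in CPM and 1.22 with Pkp3 as stratified. The type I over type II ratio of 0.16 ranged from 0.16 to 0.17 with 1 library left out. It was 0.12 for simple and 4.73 for stratified keratins alone, and it reversed to -0.31 in CPM and -0.19 with coding transcripts only, the latter and the stratified split being chosen after seeing the data. Pairs apart numbered 22 of 23 with posterior mean TPM and with a pseudocount of 0.1; Krt4 over Krt13 turned from 1.83 to -1.33 with posterior means, and Pkp2 over Pkp3 from -0.53 to 0.13 in CPM. CPM holds no length correction, by construction; the cause of the other changes was not tested. The single member called between libraries, Krt15, was the same with a lower and a higher fold minimum and with posterior means. It was also the same in CPM with TMM factors or DESeq2 size factors, where only the fold was required and not the intervals. With a count minimum of 10, 2 members were called (Krt15 and Krt4), and with no minimum 3 (also Krt77). No share over all protein-coding genes was taken at these lower minima, so these 2 counts have no background to be read against. The major transcript was the same for 11 of 11 members with posterior mean percent and 10 of 10 at a mean TPM of 5. At most 3 counts in each library were held by 29 of 64 members, against 4857 of 21474 protein-coding genes. At so few counts, a low level and no transcript cannot be told apart.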
